A study of Mus musculus with 6 samples.

Results

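Mitotic kinase, spindle and kinetochore genes, 50 in all, were examined in GFP+ mouse marrow cells, labelled as haematopoietic stem cells (HSCs), that were recovered after transplantation of HSCs given an inhibitor of the microRNA miR-31-5p. The genes were chosen by symbol as a list, and all 50 were among the 25033 gene symbols with deposited read counts. They were grouped by role into cyclins and CDK partners (8 genes), mitotic kinases (7), kinesins (6), kinetochore proteins (6), condensin and chromosome structure proteins (5), the anaphase-promoting complex with its substrates (4), passenger complex partners of Aurora B (2), spindle proteins (8) and cytokinesis proteins (4). In the inhibitor group, 3 libraries were made from GFP+ cells sorted from bone marrow of mice that had received HSCs treated with the miR-31-5p inhibitor. In the control group, 3 libraries came from recipients of HSCs treated with a control RNA. All 6 libraries were labelled as C57BL/6J, 6 months of age, with haematopoietic stem cells as the cell type. The labels do not say how many mice went into a library or whether each came from its own mouse. The p-values therefore cover the spread among these libraries alone, which may be technical.

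Mitosis is driven by the kinase CDK1 bound to A- and B-type cyclins, and it is organised by the Aurora and Polo kinases, by kinesin motors that build the spindle, and by the kinetochore, which ties each chromosome to microtubules. It ends when the anaphase-promoting complex, a ubiquitin ligase, destroys cyclin B and securin. Most of these genes are transcribed late in the cell cycle under the MuvB complex with B-MYB and FOXM1, so that in a cell population their transcripts are counted mainly from cycling cells. HSCs are known for being mostly quiescent, while the progenitors that they give rise to divide rapidly. In bulk RNA, fewer cells in mitosis and less RNA per mitotic cell cannot be told apart.

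Library totals were 16873188 to 19496200 counts in the inhibitor group and 19866738 to 21245861 in the control group. Within groups the counts of library pairs differed beyond sampling noise. The chi-square over its degrees of freedom was 3.04 to 4.24 for inhibitor pairs and 7.55 to 16.8 for control pairs, and control library 1 took part in both of the larger control values. The precursor ribosomal RNA gene Rn45s had 1784 to 3145 counts in the inhibitor libraries and 20039, 3667 and 61656 counts in control libraries 1 to 3. Of 15 HSC and progenitor markers, 4 were lower and 5 higher, with a median log2 change of 0.10. Their summed levels were 1675 to 1763 CPM (counts at a common library size, scaled by TMM) in the inhibitor libraries and 1692 to 1715 CPM in the control libraries. The progenitor gene Kit averaged 406.2 CPM in the inhibitor group and 401.9 CPM in the control group. Of the HSC markers, Procr averaged 7.55 CPM in the inhibitor group and 1.06 CPM in the control group, Hlf 3.65 CPM in the inhibitor group and 6.95 CPM in the control group, and Mecom 0.384 CPM in the inhibitor group and 0.636 CPM in the control group. Procr, Hlf and Mecom were low beside the myeloid gene Lyz2, which averaged 1103 CPM in the inhibitor group and 2243 CPM in the control group. The 15 HSC and progenitor markers together summed to more than the erythroid or the lymphoid markers given below. The label is kept here only as a label. Summed levels of 14 megakaryocyte markers were 5088 to 5209 CPM in the inhibitor libraries and 2034 to 2324 CPM in the control libraries (14 of 14 higher). Those of 12 neutrophil markers were 5776 to 5928 CPM in the inhibitor libraries and 6507 to 7367 CPM in the control libraries. Of the 11 neutrophil markers tested, 5 were lower and 5 higher. Summed levels of 14 monocyte and dendritic markers were 4092 to 4166 CPM in the inhibitor libraries and 5047 to 5207 CPM in the control libraries (6 lower and 5 higher). The 14 erythroid markers summed to 70.3 to 75.4 CPM in the inhibitor libraries and 43.5 to 45.2 CPM in the control libraries (5 of the 7 tested higher). The 15 lymphoid markers summed to 27.7 to 30.4 CPM in the inhibitor libraries and 41.1 to 46.4 CPM in the control libraries (3 of the 4 tested lower). The 8 mast cell and basophil markers summed to 1157 to 1250.3 CPM in the inhibitor libraries and 1151 to 1169 CPM in the control libraries (3 lower and 2 higher). None of the marker genes was at 0 in all libraries, and the part that a shift in cell types took in the changes below was not tested.

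The mitotic genes were lower in the inhibitor group by small amounts. Of the 50, all of which passed the filter on low counts, 17 were lower, 1 was higher and 32 did not pass an adjusted p of 0.05 in edgeR's quasi-likelihood test. Over all 12978 genes tested, 20.1% were lower and 20.4% higher, so the share of mitotic genes called lower (34%) was above the background and the share called higher (2%) below it. The median log2 change of the 50 was -0.12, against -0.01 over all genes tested, and 41 of the 50 had a negative log2 change. In 24 of the 50 all inhibitor libraries lay below all control libraries, which held for 26.5% of all tested genes, and in 2 they lay above them (25.9% of all tested genes). The 17 genes fell by 11.2% (Birc5) to 27.8% (Cenpa). No gene was near the counting floor, since the lowest count of any of the 50 in any library was 213 (Pttg1) and the highest was 21842 (Mki67). The share of all counts held by the 50 genes was 0.668, 0.678 and 0.675% in inhibitor libraries 1 to 3, and 0.67, 0.761 and 0.752% in control libraries 1 to 3. On that summed measure control library 1 lay among the inhibitor libraries and the other control libraries lay above them. With TMM scaling the 50 genes summed to 6807 CPM in control library 1, slightly above the inhibitor libraries (6690 to 6771 CPM). Control libraries 2 and 3 had 7561 and 7515 CPM.

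**Figure D1:**
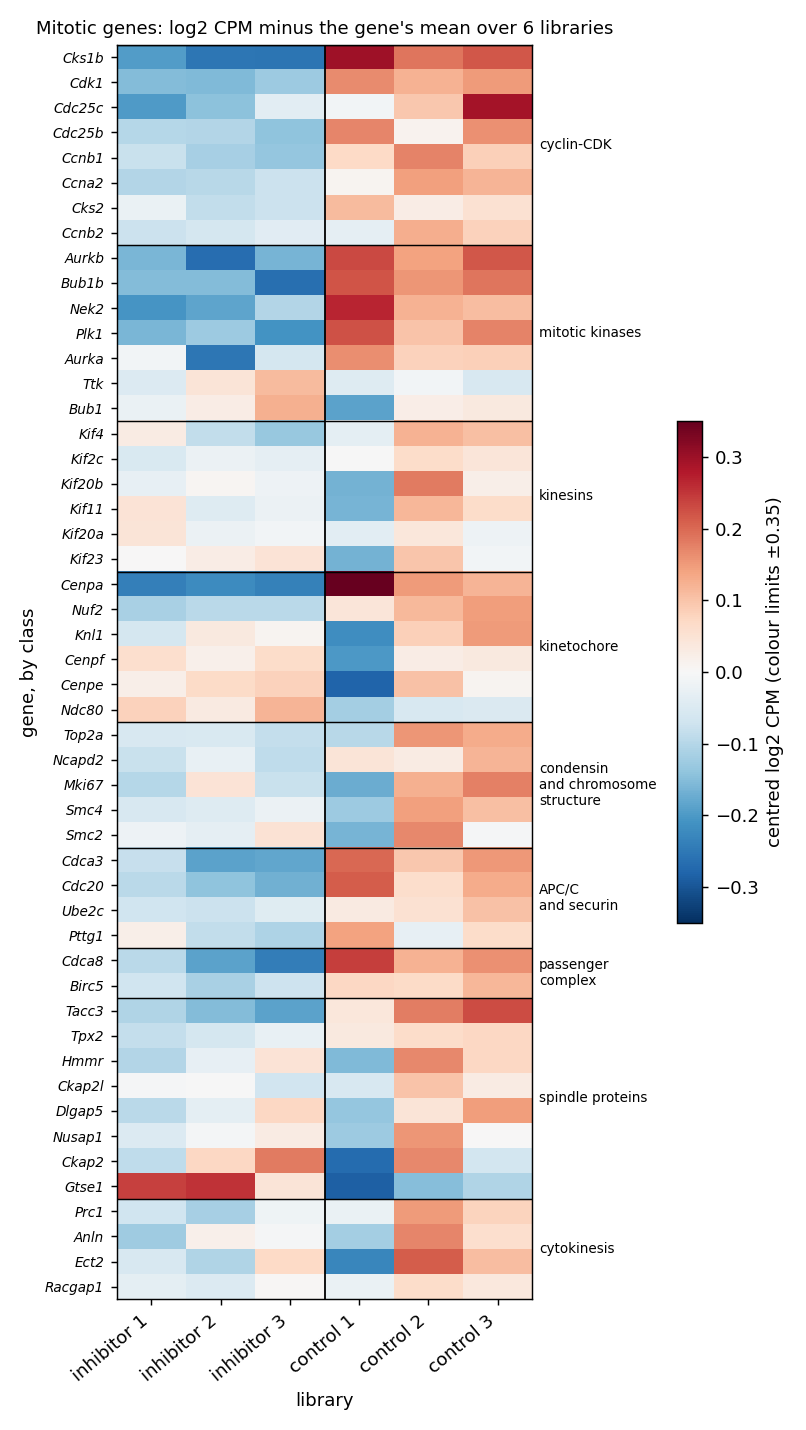
Level of each of 50 mitotic genes (rows, by role) in each library (columns, inhibitor libraries left of control libraries), as log2 CPM minus the gene's mean over the 6 libraries. Cyclin, CDK and most mitotic kinase genes are blue in all inhibitor libraries and mostly red in the control libraries, while for kinesin, spindle and cytokinesis genes control library 1 is the lowest of the control libraries.

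Among the cyclins and CDK partners, 5 of 8 fell and the other 3 had negative log2 changes that did not pass (-0.26 to -0.12). Cks1b, a small CDK-binding protein that also helps the SCF ubiquitin ligase to recognise the inhibitor p27 (mm10 chromosome 3, 89415472 to 89418291), had 74.5, 71.6 and 71.4 CPM in inhibitor libraries 1 to 3, against 105, 97.0 and 99.1 CPM in control libraries 1 to 3. Its log2 change was -0.47 ± 0.06 (± SE, n = 3 libraries per group, edgeR adjusted p = 1.56e-05), and the groups were well apart. Its near-identical copy Cks1brt had at most 4 counts in any library. How reads that match both genes were counted is not known, so these counts do not show whether such reads were lost to Cks1b. The paralogue Cks2, which binds CDKs in the same way, had 82.5, 79.0 and 79.6 CPM in the inhibitor libraries, against 90.5, 85.4 and 87.1 CPM in the control libraries (log2 change -0.13 ± 0.06, edgeR adjusted p = 0.0986), and its sign turned to 0.020 under the length and GC correction given below. Cdk1, the central mitotic kinase, had 102, 102 and 104 CPM in the inhibitor libraries, against 127, 123 and 126 CPM in the control libraries. It changed by -0.29 ± 0.05 on the log2 scale (edgeR adjusted p = 0.000516), with every inhibitor library below every control library. Of its cyclins, Ccnb1 had 131, 128 and 126 CPM in the inhibitor libraries, against 146, 157 and 147 CPM in the control libraries (log2 change -0.22 ± 0.06, edgeR adjusted p = 0.00534). Ccna2 had 211, 212 and 215 CPM in the inhibitor libraries, against 229, 251 and 247 CPM in the control libraries (log2 change -0.18 ± 0.05, edgeR adjusted p = 0.0138). Neither gene's groups overlapped. Ccna2 was no longer past the threshold without inhibitor library 1 or 2 or control library 2 or 3, at -0.18, -0.18, -0.15 and -0.17. Ccnb2 did not pass (log2 change -0.12 ± 0.06, edgeR adjusted p = 0.134). Of the CDC25 phosphatases, which activate CDK1, Cdc25b had 38.2, 38.2 and 37.2 CPM in the inhibitor libraries, against 46.1, 41.3 and 45.8 CPM in the control libraries (log2 change -0.23 ± 0.07, edgeR adjusted p = 0.022). Cdc25b did not pass without any single inhibitor library (-0.24 to -0.21), without control library 3 (-0.20) or without control libraries 1 and 3 together (-0.13, edgeR adjusted p = 0.37). Cdc25c, the member with the lowest level per length, did not pass (log2 change -0.26 ± 0.11, edgeR adjusted p = 0.0765).

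Of the 7 mitotic kinases, 5 fell, and the class had the lowest median log2 change of the 9 classes, -0.33. Aurkb, the kinase that corrects faulty attachments at centromeres (mm10 chromosome 11, 69045624 to 69051664), had 91.3, 84.7 and 91.0 CPM in the inhibitor libraries, against 119.8, 112 and 119 CPM in the control libraries. Its log2 change was -0.39 ± 0.06 (edgeR adjusted p = 7.9e-05). Bub1b, the checkpoint protein BubR1 (chromosome 2, 118598202 to 118641592), had 122, 122 and 113 CPM in the inhibitor libraries, against 159, 151 and 155 CPM in the control libraries. The change was -0.38 ± 0.06 (edgeR adjusted p = 7.91e-05), of the same size as that of Aurkb. Plk1, the Polo kinase of mitotic entry and spindle assembly (chromosome 7, 122159435 to 122169884), had 76.2, 78.0 and 73.6 CPM in the inhibitor libraries, against 99.5, 91.2 and 96.1 CPM in the control libraries (log2 change -0.33 ± 0.06, edgeR adjusted p = 0.000457). Nek2, which splits the centrosomes, had 44.7, 45.4 and 48.0 CPM in the inhibitor libraries, against 62.1, 56.1 and 55.6 CPM in the control libraries (log2 change -0.33 ± 0.07, edgeR adjusted p = 0.00163). In these 4 kinase genes all inhibitor libraries lay below all control libraries by a margin wider than the spread within either group. Aurka, the spindle pole Aurora kinase, had 54.4, 45.9 and 52.4 CPM in the inhibitor libraries, against 61.3, 57.9 and 58.0 CPM in the control libraries (log2 change -0.21 ± 0.07, edgeR adjusted p = 0.0304), and did not pass without inhibitor library 2 (-0.14), inhibitor library 3 (-0.23), control library 3 (-0.22) or control libraries 1 and 3 together (-0.19). The checkpoint kinases Ttk (log2 change 0.07 ± 0.07, edgeR adjusted p = 0.449) and Bub1 (0.08 ± 0.07, edgeR adjusted p = 0.364) did not pass, and their groups overlapped. After the length and GC correction Bub1 was at -0.01. Bub1 had 99.0, 102 and 109.6 CPM in the inhibitor libraries, against 88.3, 102 and 103 CPM in the control libraries.

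**Figure D2:**
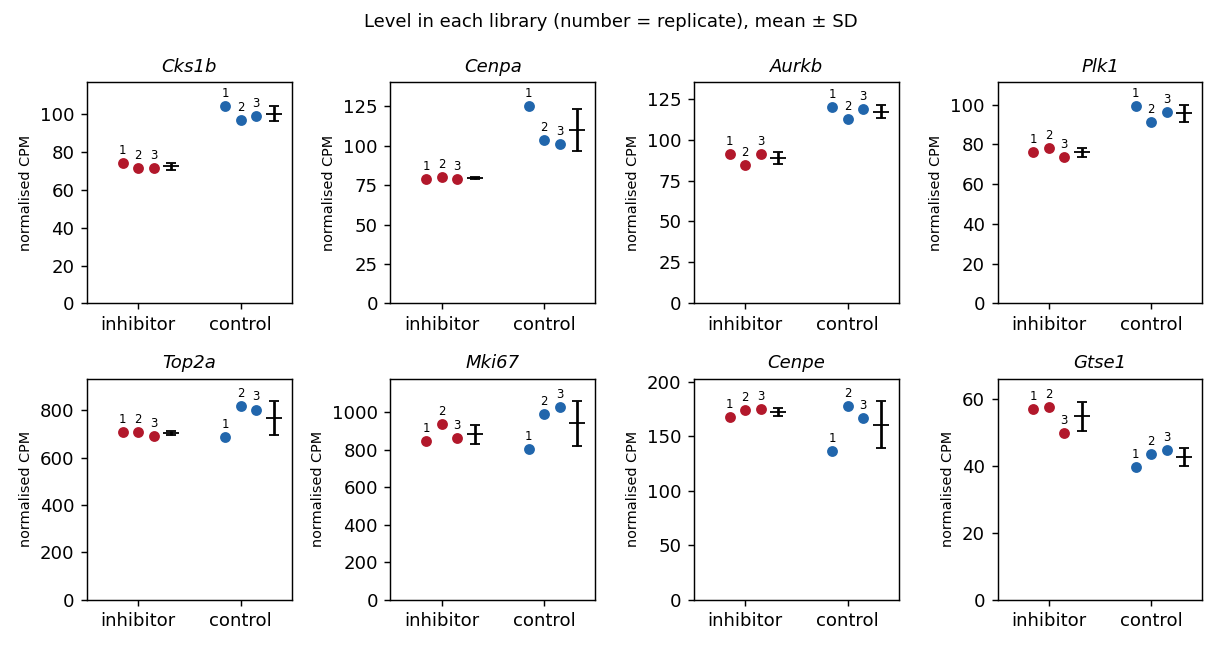
Normalised CPM of 8 mitotic genes in each inhibitor library (left) and control library (right) on axes that start at 0, with the replicate number above each point and the mean ± SD beside it (n = 3 libraries per group). Cks1b, Cenpa, Aurkb and Plk1 are lower in all inhibitor libraries and Gtse1 is higher, while for Top2a, Mki67 and Cenpe control library 1 lies below the other control libraries.

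The partners of Aurora B fell with it. Cdca8, borealin, which holds the complex on centromeres (chromosome 4, 124918465 to 124936917), had 90.3, 84.7 and 81.6 CPM in the inhibitor libraries, against 114, 105 and 108 CPM in the control libraries (log2 change -0.35 ± 0.06, edgeR adjusted p = 0.000365). Birc5, survivin, had 89.9, 87.3 and 89.7 CPM in the inhibitor libraries, against 99.3, 98.9 and 102 CPM in the control libraries (log2 change -0.17 ± 0.06, edgeR adjusted p = 0.023). The scaffold gene of the complex, Incenp, is not among the 50 but was on a list of 72 other mitosis genes. It had 163, 156 and 144 CPM in the inhibitor libraries, against 223, 201 and 211 CPM in the control libraries (log2 change -0.45 ± 0.06, edgeR adjusted p = 3.15e-05). All 4 subunit genes of the chromosomal passenger complex were thus lower, a grouping made after the values were seen. Birc5 was the smallest of these changes and did not pass without any single inhibitor library (-0.18 to -0.16), without control library 3 (-0.15) or without control libraries 1 and 3 together (-0.16).

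Among the anaphase-promoting complex genes and its substrates, 2 of 4 fell. Cdc20, the activator that starts anaphase, had 88.8, 86.0 and 84.4 CPM in the inhibitor libraries, against 109.8, 99.0 and 104 CPM in the control libraries (log2 change -0.27 ± 0.06, edgeR adjusted p = 0.00226). Cdca3, an F-box-like protein of mitotic entry, had 65.7, 61.0 and 61.2 CPM in the inhibitor libraries, against 79.8, 74.1 and 77.1 CPM in the control libraries (log2 change -0.30 ± 0.06, edgeR adjusted p = 0.00157). Neither gene's groups overlapped. Ube2c, the ubiquitin-conjugating enzyme of the complex, had 103, 103 and 105 CPM in the inhibitor libraries, against 111, 112 and 116 CPM in the control libraries (log2 change -0.13 ± 0.05, edgeR adjusted p = 0.076), with a sign that turned to 0.023 under the length and GC correction. Securin, Pttg1, did not pass (-0.12 ± 0.11, edgeR adjusted p = 0.417), and its sign turned to 0.042 under the same correction.

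At the kinetochore, 2 of 6 genes fell. Cenpa, the histone H3 variant that marks centromeres (chromosome 5, 30666877 to 30674837), had 79.1, 80.1 and 79.2 CPM in the inhibitor libraries, against 125, 104 and 101 CPM in the control libraries. Its log2 change of -0.47 ± 0.08 (edgeR adjusted p = 0.000158) was of the same size as that of Cks1b. Control library 1 was the highest of the libraries for Cenpa, and without it the change was -0.37, still past the threshold, against -0.44 for Cks1b and -0.38 for Aurkb in that fit. Nuf2, a microtubule-binding subunit of the NDC80 complex, had 72.4, 73.3 and 73.3 CPM in the inhibitor libraries, against 80.5, 84.7 and 86.6 CPM in the control libraries (log2 change -0.20 ± 0.06, edgeR adjusted p = 0.0132), and did not pass without inhibitor library 1 (-0.20) or control library 3 (-0.18). Its partner Ndc80 had 53.8, 52.0 and 55.3 CPM in the inhibitor libraries, against 46.8, 48.9 and 49.1 CPM in the control libraries. The log2 change of Ndc80 was 0.15 ± 0.07 and did not pass (edgeR adjusted p = 0.0762), although all inhibitor libraries lay above all control libraries. The kinetochore motor gene Cenpe had 168, 174 and 175 CPM in the inhibitor libraries, against 136, 178 and 167 CPM in the control libraries (log2 change 0.10 ± 0.08, edgeR adjusted p = 0.33), and its sign turned to -0.0034 without control library 1. The outer kinetochore genes Knl1 (-0.02 ± 0.08) and Cenpf (0.09 ± 0.07) did not pass either, and Cenpf was at -0.099 after the length and GC correction.

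The motor, condensin and cytokinesis genes gave 0 calls among 15 genes in edgeR's test with all libraries. The count depended on the libraries and the correction, with 8 of the 15 lower without control library 1 and 11 of the 15 lower after the length and GC correction given below. Kinesin changes ran from -0.13 (Kif4) to 0.05 (Kif23), with SEs of 0.06 to 0.07. Kif11, the motor that pushes spindle poles apart, had 250.3, 235 and 239 CPM in the inhibitor libraries, against 217, 262 and 253 CPM in the control libraries (log2 change -0.02 ± 0.07, edgeR adjusted p = 0.873). The groups overlapped, with control library 1 below every inhibitor library, and the sign turned without inhibitor library 2 (0.0033) and without control library 2 (0.044) or 3 (0.015). After the length and GC correction Kif11 was lower (-0.11, edgeR adjusted p = 0.0391). Without control library 1, Kif4 was lower and the other 5 kinesin genes did not pass. In the chromosome structure class, Top2a, the topoisomerase that untangles chromosomes, had 707, 708 and 693 CPM in the inhibitor libraries, against 687, 818 and 804 CPM in the control libraries (log2 change -0.13 ± 0.06, edgeR adjusted p = 0.116). Mki67, the proliferation antigen Ki-67, which coats mitotic chromosomes, had 847, 939 and 861 CPM in the inhibitor libraries, against 806, 990.3 and 1027 CPM in the control libraries (log2 change -0.09 ± 0.08, edgeR adjusted p = 0.381). For both, control library 1 lay below every inhibitor library and the other control libraries above them. The condensin genes changed by -0.13 ± 0.05 (Ncapd2), -0.09 ± 0.07 (Smc4) and -0.01 ± 0.07 (Smc2). In cytokinesis, Racgap1, a subunit of centralspindlin, had 156, 155 and 161 CPM in the inhibitor libraries, against 157, 167 and 164 CPM in the control libraries (log2 change -0.05 ± 0.05, edgeR adjusted p = 0.469). The other 3 cytokinesis genes lay between -0.14 (Prc1) and -0.07 (Ect2). At an unadjusted p under 0.05, 2 of these 15 genes were lower (Ncapd2 and Prc1). The share of all genes tested at that level was not counted. DESeq2 called 0 of the 15, beside 2390 lower and 2574 higher of all 12978 genes tested. With limma-voom 0 of the 15 were called, beside 2557 lower and 2651 higher of 12978.

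Of the 8 spindle proteins, 1 fell and 1 rose. Tacc3, an Aurora A substrate that crosslinks spindle microtubules, had 122, 118 and 115 CPM in the inhibitor libraries, against 135, 149 and 154 CPM in the control libraries (log2 change -0.30 ± 0.06, edgeR adjusted p = 0.00117). Gtse1, a microtubule-binding protein whose mouse gene is known as a p53-inducible gene (chromosome 15, 85859691 to 85876573), had 57.1, 57.7 and 49.9 CPM in the inhibitor libraries, against 39.7, 43.6 and 44.9 CPM in the control libraries. It rose by 0.36 ± 0.08 on the log2 scale (edgeR adjusted p = 0.00183), with no overlap between the groups, and was the single gene of the 50 to rise. Tpx2, the activator of Aurora A, had 165, 168 and 172 CPM in the inhibitor libraries, against 179, 183 and 184 CPM in the control libraries (log2 change -0.11 ± 0.05, edgeR adjusted p = 0.092). The other 5 genes, Hmmr, Dlgap5, Nusap1, Ckap2 and Ckap2l, changed by -0.06 to 0.10 and did not pass.

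**Figure D3:**
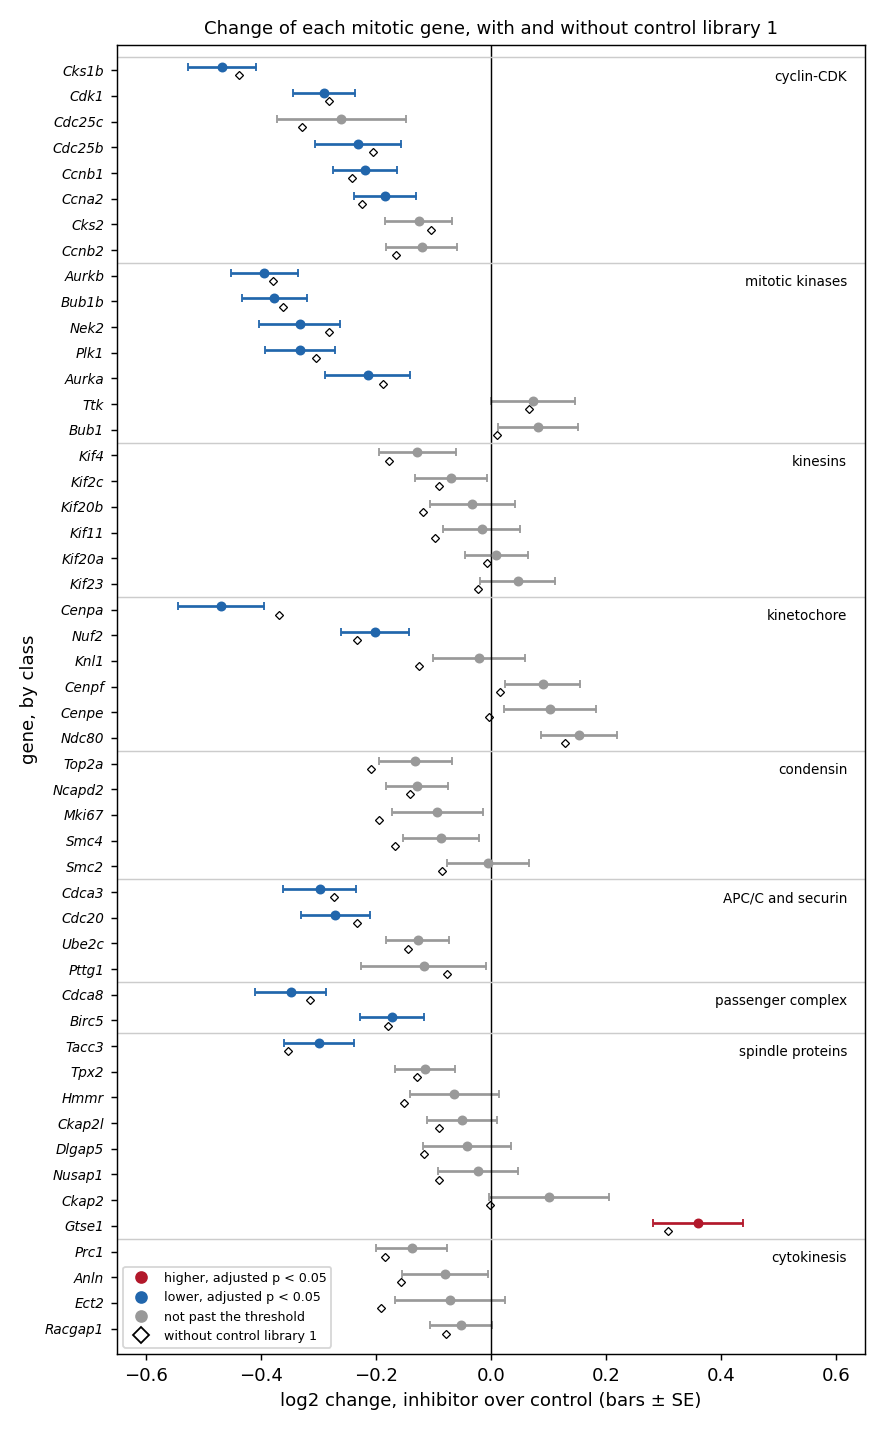
Log2 change of each mitotic gene in the inhibitor group over the control group, by role, with bars of ± SE (filled points) and the value without control library 1 (open diamonds). Without that library 31 of the 50 genes were lower, against 17 with it, and the diamonds of many kinesin, spindle, condensin and cytokinesis genes lie left of the points.

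Control library 1 bore on these counts. It was the lowest of the 3 control libraries in 33 of the 50 genes and the highest in 14. It was the lowest in all 6 kinesin, all 8 spindle and all 4 cytokinesis genes, and the highest in 5 of the 7 kinase genes. Such counts were not made over all genes tested, so they are not shown to be particular to these classes. Without control library 1, 31 of the 50 genes were lower and 1 higher, against a background of 21.5% lower among all genes tested in that fit. The median was -0.16. The 14 genes called lower without it but not with all libraries were Ccnb2, Cdc25c, Kif4, Knl1, Smc4, Ncapd2, Top2a, Mki67, Ube2c, Tpx2, Hmmr, Prc1, Anln and Ect2. Without control library 3, 12 were lower, as were 2186 of all 13185 genes tested in that fit. Lower in all 19 alternative analyses were 11 genes, namely Cdk1, Cks1b, Aurkb, Plk1, Bub1b, Nek2, Cenpa, Cdc20, Cdca3, Cdca8 and Tacc3, and Gtse1 was higher in all 19. The 19 include a minimum absolute log2 change of 0.25, at which the same 11 genes were lower. Ccnb1 (-0.22) was lower in 18 of the 19 and missed only that minimum. How many of all genes tested kept their call in all 19 was not counted.

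Transcript length and base composition moved with the changes. The 17 lower genes had a median longest transcript of 2214 bases and a median GC content of 51.0%, against 3693.5 bases and 45.1% for the 32 genes that did not pass. Across the 50 genes, Spearman's rho between the log2 change and length was 0.45 and between the log2 change and GC content -0.56. Over 12914 tested genes with a known GC content the values were 0.21 and -0.15. The deviation of control library 1 from the other controls followed the same properties, with a rho of -0.67 for length and 0.69 for GC content across the 50 genes, and -0.40 and 0.46 over all. These correlations are across genes that share the same 6 libraries and describe them only. After a loess correction for length and GC content in each library, chosen after seeing the data, 29 of the 50 were lower and 2 higher (Gtse1 and Ndc80), against a background of 22.1% lower, with a median of -0.15. Of the 14 genes called lower after this correction but not without it, 11 were also among the 14 called when control library 1 was left out. Aurka (-0.15) and Birc5 (-0.03) were no longer past the threshold after it. Such a correction also removes any true difference that goes with length or GC content.

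**Figure D4:**
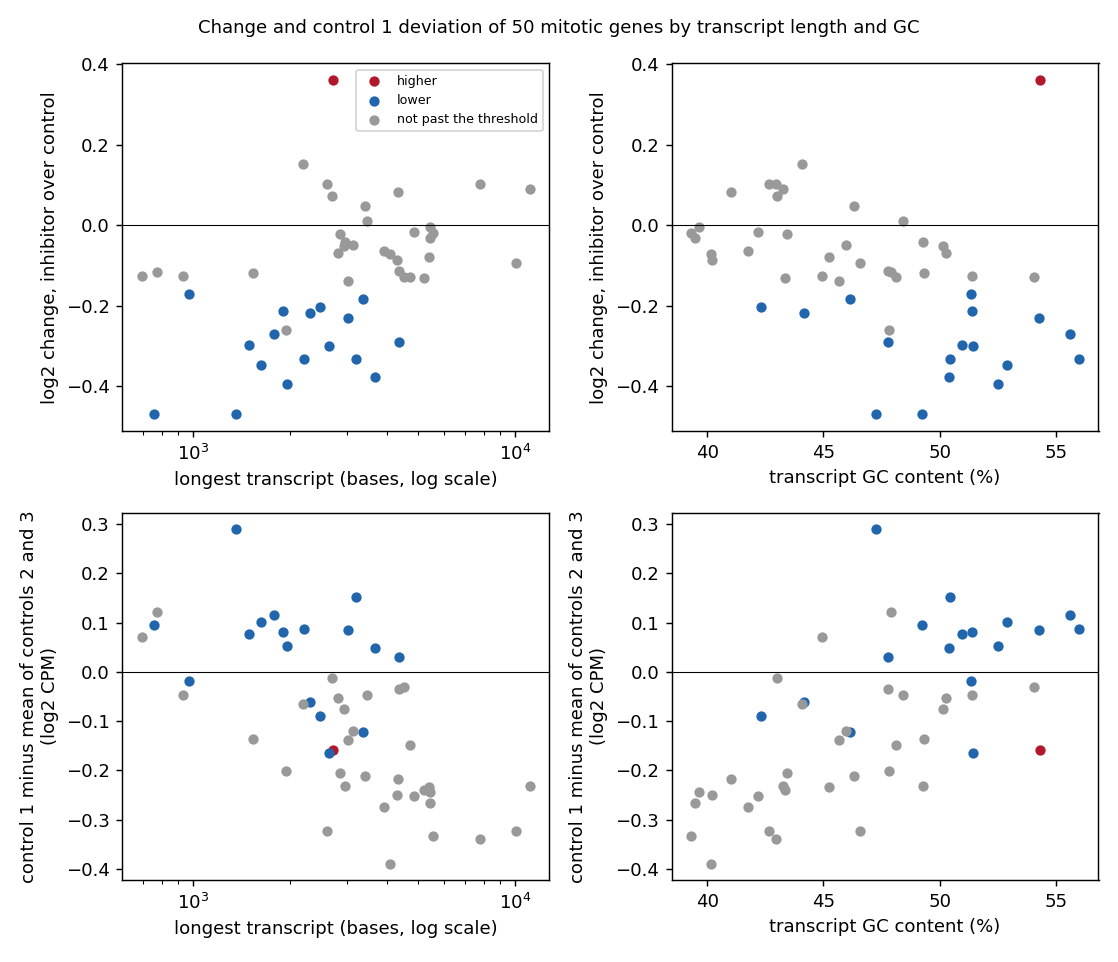
Log2 change in the inhibitor group over the control group (upper panels) and log2 CPM of control library 1 minus the mean of control libraries 2 and 3 (lower panels) of 50 mitotic genes, by longest transcript length (left, log scale) and transcript GC content (right). Genes that fell (blue) have mostly shorter transcripts of higher GC content, and control library 1 lies below the other controls for long transcripts of low GC content.

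Other mitosis genes were also more often lower than higher. Among 72 further genes of mitosis, the test called 31 lower (43.1%) and 5 higher (6.94%) and left 36 uncalled, at a median log2 change of -0.15. Over all genes tested, 20.1% were lower and 20.4% higher. The smallest p was that of Mis12, a kinetochore scaffold gene, with 37.2, 36.3 and 34.8 CPM in the inhibitor libraries, against 61.5, 66.0 and 70.3 CPM in the control libraries (log2 change -0.87 ± 0.07, edgeR adjusted p = 1.55e-07). Cdc25a, the phosphatase of CDK2 and CDK1, changed by -0.56 ± 0.06 (edgeR adjusted p = 4.36e-06), and Wee1, the kinase that opposes it, by -0.53 ± 0.08 (edgeR adjusted p = 7.76e-05). Both sides of the CDK1 phosphorylation switch were thus lower, with 4 of its 5 genes (Cdc25a, Cdc25b, Wee1 and Pkmyt1) past the threshold, again a grouping made after the values were seen. The genes that rose were the kinetochore gene Zwint (0.57 ± 0.06), Psrc1, a spindle gene known as p53-inducible (0.67 ± 0.10), the cohesin gene Stag2 (0.21 ± 0.07), Depdc1a (0.33 ± 0.11) and the kinetochore gene Ska1 (0.27 ± 0.10). Of the 9 genes of the outer kinetochore's KMN network, 5 were lower (Mis12, Nsl1, Pmf1, Nuf2 and Spc24), while in condensin I 1 of 5 was (Ncapg). Set beside these for scale, a list of 56 genes for S-phase entry and replication had 42 lower (75%) and 0 higher in edgeR's test, with a median of -0.29.

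Of 16 regulators of mitotic transcription, 6 were lower (37.5%) and 2 higher (12.5%), against 20.1% lower and 20.4% higher over all genes tested. Foxm1 had 98.4, 99.0 and 98.7 CPM in the inhibitor libraries, against 108, 112 and 116 CPM in the control libraries (log2 change -0.19 ± 0.06, edgeR adjusted p = 0.0159). Mybl2, which encodes B-MYB, had 96.5, 96.2 and 91.3 CPM in the inhibitor libraries, against 119, 101 and 110.3 CPM in the control libraries (-0.22 ± 0.07, edgeR adjusted p = 0.0166). Of the MuvB core genes, Lin52 (-0.40 ± 0.10) and Rbbp4 (-0.14 ± 0.05) fell, while Lin9 (-0.17 ± 0.08), Lin37 (-0.15 ± 0.11) and Lin54 (-0.02 ± 0.10) did not pass. Rbl2, the pocket protein p130 of the repressive DREAM complex, rose (0.27 ± 0.06, edgeR adjusted p = 0.00346), and so did Cdkn1a, the CDK inhibitor p21. Cdkn1a had 188, 190.3 and 176 CPM in the inhibitor libraries, against 85.2, 75.6 and 78.9 CPM in the control libraries (log2 change 1.21 ± 0.06). The DP1 gene Tfdp1 (-0.25 ± 0.05) and Trp53 (-0.15 ± 0.06) fell, and E2f4 (-0.12 ± 0.06), Rbl1 (-0.02 ± 0.08) and the NF-Y genes Nfya, Nfyb and Nfyc (-0.17 to -0.05) did not pass.

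Levels per transcript length spanned 17.3-fold in the control group. Top2a was highest, with 135 ± 1.57 CPM per kilobase of its longest transcript in the inhibitor group and 147 ± 13.8 in the control group (mean ± SD, n = 3 libraries). Cks2 (116 ± 2.74 in the inhibitor group and 126 ± 3.79 in the control group), Ube2c (111 ± 1.32 in the inhibitor group and 121 ± 3.08 in the control group) and Cks1b (95.7 ± 2.27 in the inhibitor group and 132 ± 5.25 in the control group) came next. Cks1b thus stood at rank 4 in the inhibitor group, below Cks2 and Ube2c, and at rank 2 in the control group. Cdc25c was lowest, with 7.15 ± 0.412 CPM per kilobase in the inhibitor group and 8.55 ± 0.921 in the control group. Of the 49 neighbouring pairs in the control order, 45 had ranges over the control libraries that overlapped, so most neighbours did not differ beyond their spread. No gene moved by more than 5 places between the groups.

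The promoters of these genes shared sequence features, found both in genes that fell and in genes that did not pass. RefSeq promoter sequences (GRCm38.p6, 250 bases before to 50 after the start) were matched by symbol for 43 of the 50. The letters TTTGAA on either strand, those of the cell cycle homology region through which MuvB binds, were in 31 of 43 (72.1%). They were in 18.1% of 27025 promoters of the same length. Those 27025 include promoters of genes that were not tested here, unlike the background of tested genes used above. CCAAT on either strand, the letters that NF-Y binds, was in 33 of 43 (76.7%) against 37.9%, and 2 or more CCAAT were in 53.5% against 12.2%. Both motifs were in 60.5% against 7.12%, and they overlapped in 1 of the 43. TTTGAA was in 9 of the 15 matched genes that fell and in 22 of the 27 that did not pass, and was not found in the promoter of Gtse1. Shown are the 100 bases before the start, 5′ to 3′ on the gene's strand, of 3 genes that fell and 3 that did not pass, in each of which both motifs lie in this stretch. The start is that of the promoter sequence, and the Top2a stretch overlaps the 5′ end of its RefSeq gene (99024199). Capitals mark TTTGAA or CCAAT and their reverse complements TTCAAA and ATTGG.
Cdk1 (chr10:69352913-69353012, minus strand): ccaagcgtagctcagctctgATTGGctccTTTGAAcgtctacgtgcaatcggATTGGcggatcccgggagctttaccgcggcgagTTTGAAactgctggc
Cks1b (chr3:89418292-89418391, minus strand): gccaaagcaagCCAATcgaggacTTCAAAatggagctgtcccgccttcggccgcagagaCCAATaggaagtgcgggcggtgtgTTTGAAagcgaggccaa
Cdc20 (chr4:118437344-118437443, minus strand): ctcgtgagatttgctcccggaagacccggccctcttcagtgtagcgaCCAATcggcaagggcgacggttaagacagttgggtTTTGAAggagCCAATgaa
Kif11 (chr19:37376282-37376381, plus strand): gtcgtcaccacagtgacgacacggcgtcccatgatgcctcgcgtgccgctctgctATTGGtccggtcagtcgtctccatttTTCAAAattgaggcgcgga
Top2a (chr11:99024190-99024289, minus strand): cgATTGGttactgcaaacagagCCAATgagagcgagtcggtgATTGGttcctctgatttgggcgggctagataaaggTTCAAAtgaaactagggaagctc
Ube2c (chr2:164769829-164769928, plus strand): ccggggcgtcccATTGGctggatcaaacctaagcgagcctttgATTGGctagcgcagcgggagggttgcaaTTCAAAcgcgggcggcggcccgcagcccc
The first 3 had log2 changes of -0.29, -0.47 and -0.27 and the last 3 of -0.02, -0.13 and -0.13.

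Matches to the seed of the inhibited microRNA were also sought. Mature miR-31-5p is given from RefSeq (GRCm38.p6), with its seed, bases 2 to 8, in capitals.
miR-31-5p: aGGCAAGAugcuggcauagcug
The complementary site TCTTGCC was in the longest annotated 3′ UTR of 5 of the 50 genes (10%), against 12.6% of 12280 tested genes with an annotated 3′ UTR, in GENCODE release M21. Median 3′ UTR lengths were 558 bases in the 50 and 1109 bases in all. The 5 sites are shown in 30 bases of sequence with the site in capitals.
Cdk1: tcctggtcagttTCTTGCCatttggaaact
Birc5: tttaatgatttaTCTTGCCacgatggtgat
Cdc25b: cccagaaagggaTCTTGCCctttaagaccc
Kif2c: aaagtcactagtTCTTGCCtttatgtattt
Nusap1: tggtggtagggcTCTTGCCtagcacgcata
Those of Cdk1 and Birc5 are followed by an A. The Birc5 site lies at base 2318 of a 3′ UTR of 2936 bases, whereas the longest Birc5 transcript in the deposited data has 972 bases. Whether the counted Birc5 transcripts carry the site is therefore not known. The log2 changes of the 5 genes were -0.29 for Cdk1, -0.17 for Birc5, -0.23 for Cdc25b, -0.07 for Kif2c and -0.02 for Nusap1. None of the 5 was called higher in the inhibitor group, where 20.4% of all genes tested were. With only 5 genes that count decides nothing, and an effect of the sites was not tested. A match is a description of the sequence only.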

How the data were processed

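RNA had been extracted with Trizol and made into mRNA libraries with a VAHTS mRNA-seq V3 kit, per the labels' protocols. The deposited table of each of the 6 libraries gave counts, not normalised by the authors, for 25033 RefSeq gene symbols. A second deposited column held the authors' RPKM values, which were not used in any test. The submitters' processing notes name bcl2fastq 2.20 and the build mm10. Aligner, counter and strandedness: not given in the sources used here. Reads of overlapping genes therefore cannot be told apart, and 12 of the 50 genes overlap another listed gene, among them Ccna2, Aurka, Cdc20 and Kif20a.

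The filter filterByExpr, at a minimum count of 10 and a minimum total of 15, left 12978 genes. TMM gave factors of 0.985 to 1.008. The quasi-likelihood test of edgeR 4.0.16 (R 4.3.3) was run in its robust form, inhibitor over control, with Benjamini-Hochberg adjustment over all genes tested and a threshold of 0.05. SEs are the log2 change divided by the square root of the test's F value. The procedure was also run on simulated counts, which held no effect of transcript length or GC content, so that run does not bear on such effects. Alternatives used DESeq2 1.42.0 and limma-voom (limma 3.58.1) among others. The gene lists and classes were written from general knowledge with earlier results of these data known, and so were the 50 genes. Values in every library are given for the genes past the threshold and for the most abundant gene of each class. From the other mitosis genes, up to 5 in each direction with the smallest p could be named. Complexes, and genes named as their subunits, were chosen after the values were seen, as were the genes shown with values by library outside that rule (Cks2, Bub1, Ndc80 and Top2a). GC content and 3′ UTRs were those of GENCODE M21, matched by accession for all 50 genes. Motifs were sought with Python 3.11.15. Same-numbered libraries were not said to be paired.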

Additional observations from a re-analysis of the deposited data

How the results depend on the processing

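The 17 genes called lower were also called lower with RLE factors, library size alone, no filter, a stricter filter, DESeq2, limma-voom, thinning to the smallest total and without Rn45s and the 50 most abundant genes. With a minimum absolute log2 change of 0.25, 11 were lower, as were 2004 of all 12978 genes tested. With an adjusted p of 0.1, 23 of the 50 were lower and 2 higher, beside 3235 lower and 3130 higher of all 12978 genes tested. Leaving out each library in turn gave 12 to 31 lower genes among the 50 (31 without control library 1, 12 without control library 3), 1 higher, and a median of -0.16 to -0.086. Over all genes tested it gave 1877 (of 13160, without inhibitor library 3) to 2843 (of 13196, without control library 1) lower. Among the 72 other mitosis genes it gave 19 to 36 lower (19 without inhibitor library 1) and 2 to 5 higher (3 without inhibitor library 1, 2 without inhibitor library 3 and 3 without control library 3). Without control libraries 1 and 3 together, the median of the 50 was -0.18. That fit assumes that the lone control varies like the inhibitor libraries, although control pairs differed more than inhibitor pairs did. The number of genes it called is therefore not given. After the length and GC correction, 29 of the 50 were lower and 2 higher, and 3 of the other mitosis genes were higher. The log2 change of Cenpe was -0.051 without control libraries 1 and 3, -0.043 after the correction and -0.0034 to 0.19 with single libraries left out (negative without control library 1). That of Kif11 was -0.096 to 0.044 with single libraries left out (0.0033 without inhibitor library 2 and 0.015 without control library 3), and that of Ube2c was 0.023 after the correction. In all, 17 of the 50 genes changed sign in at least 1 alternative, and 0 of these 17 were called with all libraries. The correction turned 6 signs (also those of Cks2, Bub1, Cenpf and Pttg1). The cause of these shifts was not tested.

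The replicate numbers were not taken as pairs. Deviations of same-numbered libraries from their group means correlated by 0.06, 0.01 and 0.04, and control library 2 correlated best with inhibitor library 3 (0.02). With the replicate number as a block, 17 of the 50 genes were lower, 1 was higher, and 33 of the other mitosis genes were lower. The precision of small changes is limited by 3 libraries per group.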
